A study of Mus musculus with 8 samples.

Results

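Oligodendrocyte precursor cells in which many cell cycle genes were detected, sought as dividing precursors, were 434 barcodes of the 26036 in single-cell RNA sequencing of the mouse dentate gyrus. A barcode was kept with over 500 genes and under 10% mitochondrial counts. It was called a precursor with at least 3 of Pdgfra, Cspg4, Lhfpl3, C1ql1 and Cacng4 detected, at most 1 of the oligodendrocyte genes Mog, Mag, Mobp, Opalin and Cldn11, and at most 1 of Cx3cr1, Cldn5, Aldoc, Gja1, Stmn2 and Eomes, which mark other cells. It was called cycle-high with at least 4 of 10 cycle genes (Mcm2 to Mcm7, Pcna, Top2a, Cdk1 and Ccnb1) and cycle-low with at most 2. These choices left 5964 precursors among 24376 kept barcodes, of which 434 were cycle-high, 211 had exactly 3 cycle genes and were set aside, and 5319 were cycle-low. The 137 cycle-high cells with exactly 4 cycle genes and the 211 with 3 lie on either side of the limit.

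All mice carried Ki67-creERT2, Nestin-GFP and a tdTomato reporter, each heterozygous, on a mixed C57BL/6J and CD1 background, with both sexes used. The inducible Cre is made from the Ki67 gene, so tamoxifen removes a stop sequence before tdTomato in cells that are dividing when the drug acts, and GFP follows a Nestin transgene. Tamoxifen was given by gavage on consecutive days to mice of 1 month (1 experiment), 2 months (3 experiments) and 6-8 months (3 experiments, labelled 6 months), and all groups received it. Several mice were pooled in each experiment, and GFP+ cells, with tdTomato or without it, were collected by sorting before 10x Genomics capture, with chemistry Version 2 at 2 months and Version 3 at the other ages. The first 2-month experiment was sequenced as 2 libraries and was counted as 1 experiment, which gives 7 experiments from 8 libraries. One of those 2 is labelled GFP+tdT+ and GFP-tdT-, so that it may hold cells from outside the GFP gate, and it gave 40 precursors of which 0 were cycle-high. The share of precursors in the tissue was not measured. Total counts of unique molecular identifiers (UMIs, 1 for each captured RNA molecule) ran from 4861883 to 43826338 a library, with median counts of 1960 to 2920.5 a barcode in Version 2 and 4734.5 to 7636.5 in Version 3.

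Oligodendrocyte precursor cells, also called NG2 glia, are spread through the whole brain, are held in a proliferative state by platelet-derived growth factor through PDGFRA, and go on dividing in the adult. When one of them differentiates it leaves the cycle, passes through a short-lived committed stage that makes GPR17, BCAS1 and BMP4, and only later builds myelin. In the cycle, MCM2 to MCM7 form the helicase that opens DNA for copying and PCNA clamps the polymerase to it, while TOP2A untangles the copied chromosomes and CDK1 with cyclin B1 drives entry into mitosis.

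Members were not spread evenly over the experiments. At 1 month, 94 of 760 precursors were cycle-high, a share of 12.4% (95% exact Clopper-Pearson interval 10.1 to 14.9). In the 3 experiments at 2 months the counts were 3 of 383 (0.783%, 0.162 to 2.27), 0 of 197 (which allows up to 1.52%) and 2 of 495 (0.404%, 0.0490 to 1.45). At 6-8 months they were 1 of 140 (0.714%, 0.0181 to 3.92) in experiment 1, 95 of 1594 (5.96%, 4.85 to 7.24) in experiment 2 and 239 of 2395 (9.98%, 8.81 to 11.2) in experiment 3. Experiment 1 at 6-8 months stood with the 2-month experiments and apart from the other two of its own age. Intervals and limits here cover counting error only.

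**Figure D1:**
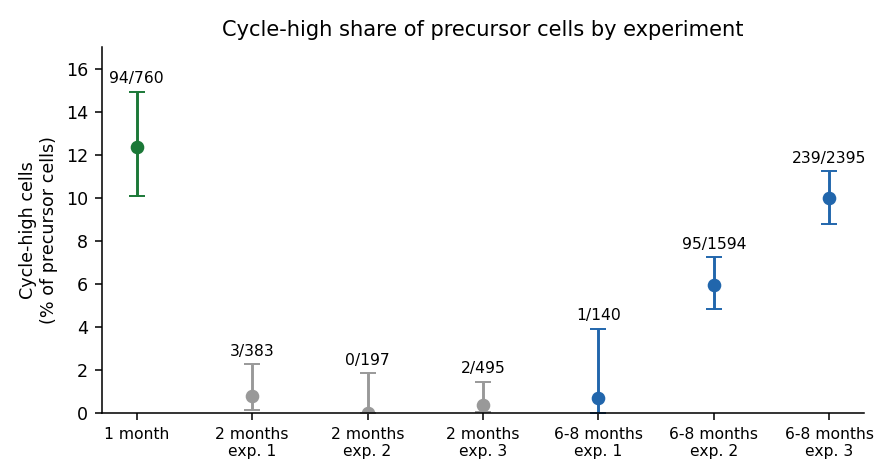
Cycle-high cells as a percentage of precursor cells (vertical axis) in each of the 7 experiments (horizontal axis), with exact 95% binomial intervals and the counts above each point. The 1-month experiment and experiments 2 and 3 at 6-8 months lie between 5.96% and 12.4%, and the other 4 lie under 1%.

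At 6-8 months the mean share was 5.55% ± 4.65 (SD, n = 3) and at 2 months 0.396% ± 0.392 (SD, n = 3), with overlap between the groups (two-sided exact permutation test, p = 0.2, where 3 against 3 can reach no less than 0.1). Age and chemistry cannot be told apart in this comparison, because all 2-month libraries were Version 2. The rule counts detected genes and so favours deep cells. When each precursor with at least 2000 UMIs was thinned to 2000, 18 of 744 (2.42%) kept 4 cycle genes at 1 month, 1 of 320, 0 of 16 and 0 of 218 at 2 months, and 0 of 132, 16 of 1563 (1.02%) and 51 of 2334 (2.19%) at 6-8 months. That left 63, 181 and 277 shallower precursors out at 2 months. At this depth the difference of 6-8 months from 2 months was 0.965 percentage points (exact permutation p = 0.4, again with 0.1 as the smallest possible), from which nothing can be read about the ages.

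Since 428 of the 434 members came from 3 experiments (1 month, and experiments 2 and 3 at 6-8 months), values below were summed over the cells of a class in each of these, and given as UMIs per 1000000 of that sum (CPM). Cycle-high cells held a median of 7913.5, 8634 and 10407 UMIs in the 3 experiments, against 6247, 6691.5 and 8066 in cycle-low precursors. The cycle-high class was thus deeper in 3 of 3 experiments, which the rule favours. Of the kept barcodes, 103 had a sequence that also occurs in another library, 18 of them precursors and 0 of them cycle-high.

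The label was checked first with lineage genes that the rule did not use. Olig1 and Olig2, transcription factors of the oligodendrocyte lineage, stood at 2999, 2710 and 3606 CPM and at 1117, 1226 and 1602 CPM in the cycle-high cells of the 3 experiments, against 153, 754 and 928 CPM and 65.4, 242 and 332 CPM in all kept barcodes that were not precursors. Sox10, another lineage factor, was at 406, 383 and 441 CPM against 27.2, 255 and 242 CPM in those other barcodes. Markers of other cells were then summed, and Cx3cr1, Cldn5, Aldoc, Gja1 and Eomes among them were limited by the rule itself. Of 9 microglia markers, Cx3cr1 included, 8 were at 0 in the cycle-high cells at 1 month and in experiment 2, and 6 in experiment 3. Of 10 vascular markers 8, 6 and 7 had UMIs in the cycle-high sums. Their totals were 146, 68.1 and 128 CPM against 171, 97.4 and 164 CPM in cycle-low cells. Of 13 mature oligodendrocyte markers, 5 of them limited by the rule, 9, 12 and 13 had UMIs. They summed to 617, 745 and 820 CPM against 1028, 1099 and 1171 CPM. The astrocyte gene Aldoc was detected in 85.9% of cycle-high and 75.5% of cycle-low cells and was usually the 1 gene of other cells that the rule allows. Of 11 stem cell and astrocyte markers 10, 9 and 10 had UMIs in the cycle-high sums, with totals of 5422, 7682 and 7478 CPM against 6576, 9476 and 8537 CPM in cycle-low cells. Apoe made up most of these totals (4380, 6547 and 6161 CPM in cycle-high cells), and Aldh1l1 was at 0 in the 3 cycle-high sums. At 1 month, 3 of 94 cycle-high cells held a UMI of Eomes or Neurog2, genes of granule neuron progenitors, against 2 of 625 cycle-low cells, and in experiment 3 at 6-8 months 2 of 239 did. The neuronal list summed to 794 CPM in the cycle-high cells at 1 month (430 in cycle-low) and to 417 and 475 CPM at 6-8 months (376 and 489), with the progenitor gene Igfbpl1 highest at 1 month (186 CPM). Leaving out every cell with a UMI of either gene, a choice made after seeing the data, left 986 genes higher and 894 lower in the comparison below, against 1061 and 925 with them. Leaving out every cell with any of the rule's 6 genes of other cells or 5 oligodendrocyte genes kept 15, 8 and 22 cycle-high cells. This left 353 genes higher and 141 lower.

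The members were selected on detection of the genes of the rule, whose values are therefore a description only. Pcna (chromosome 2) was detected in 80.9% of cycle-high and 19.8% of cycle-low cells and Mcm7 in 81.8% and 18.7%, while Mcm2 to Mcm6 were found in 58.1% to 71.0% of cycle-high cells and in 1.7% to 6.1% of the others. Top2a (GRCm38, chr11:98992943-99024189, minus strand) was found in 29.5%, Cdk1 in 28.6% and Ccnb1 in 13.4% of cycle-high cells. Replication genes therefore carried most members past the limit. Of the 434 cells, 283 (65.2%) had a UMI of 0 of the 3 mitotic genes (Top2a, Cdk1, Ccnb1), 45 had 1, and 106 (24.4%) had 2 or 3. In the cells with 0 mitotic genes, the proliferation gene Mki67 was at 0, 0 and 1.20 CPM in the 3 experiments, under the 3.99, 1.99 and 4.54 CPM of cycle-low precursors, and Birc5, which acts in mitosis, averaged 2.00 against 3.37 CPM. A cycle-low cell may hold up to 2 mitotic genes while these hold 0 by definition, so a level under the cycle-low one was in part set by the choice. The S phase genes Dtl, Gmnn and Dscc1, outside the rule, were instead higher in these cells than in cycle-low ones. These 3 genes averaged 24.1, 24.2 and 21.9 CPM against 0.761, 0.855 and 0.587 CPM. Cells with 0 mitotic genes hold at least 4 replication genes by the rule, so this side too was in part set by the choice. The values thus lie on both sides of the name dividing, which is why the class is called by its rule here. It was not shown whether the cells with 0 mitotic genes were in the cycle. The share with 2 or 3 mitotic genes was 25.5% at 1 month, 22.1% in experiment 2 and 23.8% in experiment 3 at 6-8 months.

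**Figure D2:**
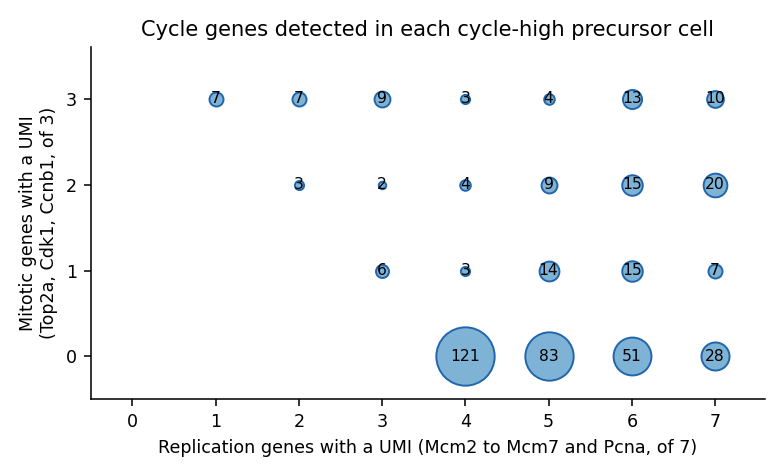
Number of the 434 cycle-high cells (written in each circle, whose area is proportional to it) by how many of the 7 replication genes (horizontal axis) and of the 3 mitotic genes (vertical axis) had a UMI. The largest circle is the 121 cells with 4 replication genes and 0 mitotic genes, and 10 cells had all 10 genes.

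Both groups of cycle genes are known to be switched on through short sites next to their start, E2F sites in replication genes and CHR with CCAAT sites in mitotic genes. The RefSeq promoter windows (GRCm38.p6, 250 bases before to 50 after the start, on the gene's strand) of the 3 most abundant replication genes of the rule and of 3 abundant G2 and M phase genes are shown to set the 2 kinds of site side by side. Capitals mark E2F, spelled TTGGCGC here, or with other middle letters as TTCCCGC, beside the spellings TTCGCGC and further TTGCCGC, the CHR spelled TTTGAA and the site named after its letters CCAAT, searched on both strands, and E2F and CCAAT matches may overlap. The windows are chr2:132253131-132253430 (minus) for Pcna, chr5:138171834-138172133 (minus) for Mcm7, chr1:128359656-128359955 (minus) for Mcm6, chr8:57511593-57511892 (plus) for Hmgb2, chr2:25224653-25224952 (minus) for Tubb4b and chr11:99024140-99024439 (minus) for Top2a.
Pcna: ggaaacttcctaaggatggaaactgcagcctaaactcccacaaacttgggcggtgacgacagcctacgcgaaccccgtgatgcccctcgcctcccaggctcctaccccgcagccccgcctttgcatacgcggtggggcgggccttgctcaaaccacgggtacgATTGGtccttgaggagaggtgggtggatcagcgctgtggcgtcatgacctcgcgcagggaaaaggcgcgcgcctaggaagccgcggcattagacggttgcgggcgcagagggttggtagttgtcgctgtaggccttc
Mcm7: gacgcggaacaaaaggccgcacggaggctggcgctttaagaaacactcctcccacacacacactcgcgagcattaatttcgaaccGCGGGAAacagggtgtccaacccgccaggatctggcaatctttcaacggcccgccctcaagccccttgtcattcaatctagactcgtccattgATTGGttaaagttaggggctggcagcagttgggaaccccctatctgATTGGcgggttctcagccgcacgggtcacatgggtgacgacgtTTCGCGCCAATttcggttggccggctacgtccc
Mcm6: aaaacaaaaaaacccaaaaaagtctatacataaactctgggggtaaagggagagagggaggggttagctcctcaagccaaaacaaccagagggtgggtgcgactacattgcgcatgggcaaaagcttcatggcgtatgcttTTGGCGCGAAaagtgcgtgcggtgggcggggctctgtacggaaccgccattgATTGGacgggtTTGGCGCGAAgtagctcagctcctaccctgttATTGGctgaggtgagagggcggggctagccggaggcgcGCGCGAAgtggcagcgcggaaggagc
Hmgb2: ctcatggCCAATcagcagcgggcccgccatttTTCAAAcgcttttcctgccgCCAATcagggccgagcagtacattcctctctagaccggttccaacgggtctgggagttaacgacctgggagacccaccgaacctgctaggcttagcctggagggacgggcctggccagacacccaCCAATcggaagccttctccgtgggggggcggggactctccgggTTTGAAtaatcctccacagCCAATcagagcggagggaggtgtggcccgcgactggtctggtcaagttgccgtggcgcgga
Tubb4b: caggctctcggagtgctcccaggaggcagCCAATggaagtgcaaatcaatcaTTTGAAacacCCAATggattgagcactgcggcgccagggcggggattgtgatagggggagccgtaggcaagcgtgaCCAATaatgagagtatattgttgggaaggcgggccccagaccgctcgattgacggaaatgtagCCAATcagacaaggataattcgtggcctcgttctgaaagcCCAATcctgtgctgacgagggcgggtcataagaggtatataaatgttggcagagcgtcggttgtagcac
Top2a: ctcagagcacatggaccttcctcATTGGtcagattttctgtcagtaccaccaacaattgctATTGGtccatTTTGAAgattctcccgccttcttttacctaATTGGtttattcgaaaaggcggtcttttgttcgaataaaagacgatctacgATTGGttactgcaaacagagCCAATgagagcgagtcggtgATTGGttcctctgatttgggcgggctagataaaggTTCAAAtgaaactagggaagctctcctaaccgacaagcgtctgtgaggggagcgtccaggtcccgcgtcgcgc

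In these windows Mcm7 held 3 and Mcm6 5 E2F matches with 0 CHR matches, and Pcna held 0 of either. Hmgb2 had 2, Tubb4b 1 and Top2a 2 CHR matches and none of them an E2F match. Every one of the 6 held CCAAT, once in Pcna and 6 times in Top2a. Over the G2 and M phase genes with a window (51 of 60), 35 (68.6%) held CHR, against 18.1% of 27025 promoters, 39 (76.5%) held CCAAT against 37.9%, and 10 (19.6%) held E2F against 9.69%. The same counts over S phase genes and over the genes tested below are void as a comparison, because only 37 of 51 and 5792 of 7313 had a window. It was therefore not shown that E2F, CHR or CCAAT differs between the 2 kinds of cycle gene. In the tested genes with a window the share with E2F was 19.0%, near the 19.6% above. As only 5792 of the 7313 tested genes had a window, an excess of E2F over expressed genes cannot be judged. A match of letters is a description and was not tested as a site.

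Cycle-high precursors were then compared with cycle-low ones of the same experiments to ask what else differs between them. Of 7233 genes outside the rule and outside the cycle lists, 1061 (14.7%) were higher and 925 (12.8%) lower in cycle-high cells (edgeR's quasi-likelihood test with the experiment as a block, Benjamini-Hochberg adjusted p under 0.05, n = 3 experiments a class). The median log2 fold change over them was -0.02. DESeq2 called 563 higher and 285 lower, and without experiment 3 at 6-8 months, which holds most of the members, the counts were 658 and 357. Each experiment is a pool of mice, so that the n is of pools. Of the 7233 genes 1370 passed the filter on detection through 1 class alone, which favours a difference, and among the 5863 detected in 20% or more of both classes 715 (12.2%) were higher and 903 (15.4%) lower. In these pooled sums, fewer cells expressing a gene and less RNA per cell cannot be told apart.

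The cycle lists move with the rule and are given without a test of their own. Of 43 S phase genes in the files 34 passed the filter (detection in 20% or more of the cycle-high or of the cycle-low cells) and of 55 G2 and M phase genes 25 did. As 28 and 16 of these passed through 1 class alone, their direction was set by the filter as well as by the rule. Rrm2, the subunit of ribonucleotide reductase that limits the making of DNA building blocks, stood at 120, 78.1 and 125 CPM in cycle-high cells and at 1.49, 0.525 and 0.859 CPM in cycle-low cells. Ube2c, which marks mitotic proteins for destruction, was at 217, 431 and 192 CPM against 3.24, 1.05 and 1.23 CPM. Mki67, the gene from which the Cre is made, was detected in under 20% of either class and so was not tested.

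Outside these lists, by the naming rule (the 12 largest called changes with at least 50 CPM and the same sign in every experiment) the largest increases were those of Pbk, Pclaf, Ube2t, Spc24, Shcbp1, Cenpm, Fignl1, Cenpk, Racgap1, Fbxo5, Cdkn2c and Cenpw, with log2 fold changes from 3.70 to 6.80. Pclaf (chr9:65890237-65903266, plus strand), which binds PCNA, was at 201, 148 and 170 CPM in cycle-high and at 0.747, 1.16 and 1.96 CPM in cycle-low cells, a log2 fold change of 6.76. Spc24, Cenpm, Cenpk and Cenpw encode parts of the kinetochore, by which chromosomes attach to the spindle. All 12 passed the filter through the cycle-high class alone, so their size is a description. On average all 12 were higher in the cells with 2 or 3 mitotic genes than in those with 0. Pclaf was at 585, 402 and 550 CPM in the former and at 14.9, 7.19 and 6.02 CPM in the cells with 0 mitotic genes, and Pbk averaged 708 against 0.71 CPM. Fignl1 and Cenpk were the most alike in both sets, at 111 and 132 CPM against 52.8 and 51.1 CPM on average.

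Of regulators of the entry into the cycle, 8 were detected in 20% or more of both classes, and of these 5 rose and 0 fell, beside 12.2% and 15.4% of all such genes. Over all 17 tested 11 rose and 1 fell, beside 14.7% and 12.8% of all genes. Of the 17, 9 passed the filter through 1 class alone, so this whole-list count is a description. Over the whole list the rises were 6 of 18 when cells with any rule gene of oligodendrocytes or other cells were left out. They were 7 of 17 without the block. Ccnd1, the cyclin that joins growth signals to the cycle, was already high in cycle-low precursors (489, 549 and 590 CPM) and was 661, 602 and 716 CPM in cycle-high ones, a log2 fold change of 0.28 ± 0.05 (SE, adjusted p = 0.000178). Ccnd2 was at 98.7, 88.1 and 63.1 CPM in cycle-high cells against 18.7, 33.2 and 39.7 CPM. Of the genes that passed through 1 class alone, Ccnd2 among them, the S phase cyclin gene Ccne1 was at 19.5, 27.9 and 33.5 CPM in cycle-high and 6.48, 1.68 and 2.52 CPM in cycle-low cells.

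Inhibitors of cyclin-dependent kinases lay on both sides. Cdkn1c, which encodes p57 and is known for holding cells out of the cycle (chr7:143458339-143461050, minus strand), was at 26.4, 26.8 and 21.2 CPM in cycle-high cells and at 83.7, 63.9 and 54.8 CPM in cycle-low cells, so that every cycle-high sum lay under every cycle-low one. Its log2 fold change was -1.41, and it was detected in 18.5% of cycle-high and 25.3% of cycle-low cells, so that it passed the filter through the cycle-low class alone. Cdkn2c, which encodes p18 (chr4:109660876-109667189, minus strand), was instead at 130, 182 and 133 CPM in cycle-high cells against 16.4, 5.98 and 9.20 CPM, and passed through the cycle-high class alone (27.1% against 6.00% of cells). Cdkn2d, its relative, rose by 1.28. Cdkn1b, which encodes p27, did not pass the test (83.3 CPM in cycle-high and 78.4 CPM in cycle-low cells on average).

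**Figure D3:**
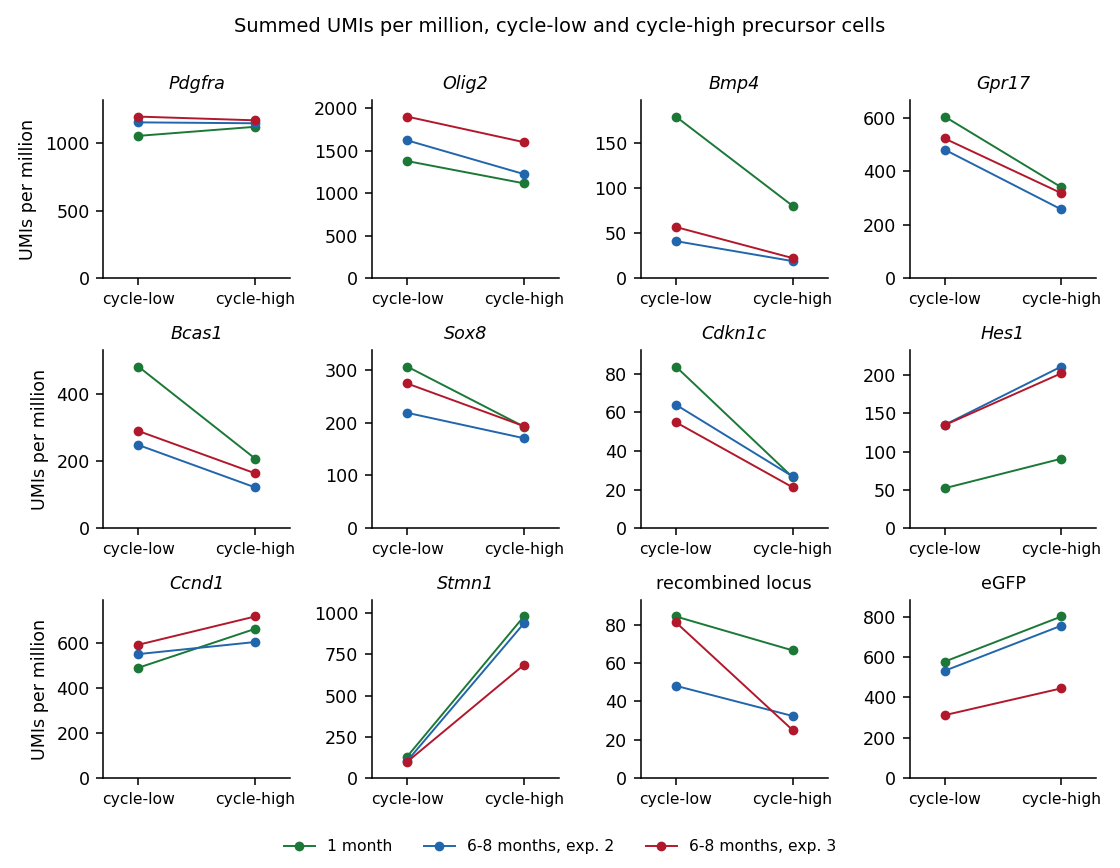
CPM (vertical axes, from 0) of 10 genes, the recombined reporter locus and eGFP in cycle-low and cycle-high precursor cells (horizontal axes), each line joining both classes of 1 of the 3 experiments. Lines fall in every experiment for Olig2, Bmp4, Gpr17, Bcas1, Sox8, Cdkn1c and the recombined locus and rise for Hes1, Ccnd1, Stmn1 and eGFP, while Pdgfra rises in 1 and falls in 2.

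Genes of the committed stage were lower in cycle-high precursors as a group. Of 16 genes 11 were detected in 20% or more of both classes, and of these 10 fell and 0 rose (beside 15.4% and 12.2% of all such genes), with a median log2 fold change of -0.59 against -0.04. Of the 12 genes tested 11 fell (median -0.63), and 6 did without the block for the experiment (median -0.65), where Bmp4 was not called. The summed level of the 16 was 2354, 2086 and 2603 CPM in cycle-high cells and 4337, 3271 and 3924 CPM in cycle-low cells, with no overlap between the classes. Bmp4, a secreted factor of committed precursors (chr14:46383520-46390669, minus strand), was at 80.3, 19.0 and 22.3 CPM against 179, 41.2 and 56.8 CPM, lower in 3 of 3 experiments although the 1-month cycle-high cells lay above the cycle-low cells at 6-8 months. Its log2 fold change was -1.23 ± 0.11 (SE, adjusted p = 1.06e-08), and it was detected in 20.3% of cycle-high and 19.6% of cycle-low cells, so that it is not among the 11.

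Bcas1, a marker of cells about to myelinate (chr2:170346991-170427845, minus strand), was at 208, 122 and 164 CPM in cycle-high and at 482, 248 and 290 CPM in cycle-low cells, with a log2 fold change of -0.98 ± 0.07 (SE, adjusted p = 8.42e-11). Gpr17, a receptor of the committed stage, was at 341, 258 and 319 CPM against 606, 482 and 524 CPM, with a log2 fold change of -0.79 ± 0.05 (SE, adjusted p = 4.70e-11). For both genes no cycle-high sum reached a cycle-low one. The deacetylase gene Sirt2 and the sialidase gene Neu4, named after their values were seen, fell by 0.69 and 0.67 on the log2 scale.

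The differences were larger against cells matched on total UMIs, that is the cycle-low cell of the same library nearest to each cycle-high cell in UMIs. Detected genes were not matched, and their median stayed higher in cycle-high cells (3499, 3742 and 4320 against 3415, 3665 and 4262). In this comparison Bmp4 stood at -2.55, Bcas1 at -1.80, Sirt2 at -1.20 and Gpr17 at -1.17 on the log2 scale, and 12 of 13 commitment genes tested fell, where 7.65% of the 7528 genes of this fit fell and 9.99% rose. Of 4 tested markers of mature oligodendrocytes 3 fell, among them Mbp, which is also in the commitment list.

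Genes of precursor identity outside the rule were mostly lower in cycle-high cells, by small amounts. Of 22 tested 14 (63.6%, beside 12.8% of all genes) were lower and 1, Emid1, higher (adjusted p = 0.00969, and 0.106 with DESeq2). The median log2 fold change was -0.22 and the largest that of the transcription factor gene Sox8 (-0.51 ± 0.06, SE, adjusted p = 1.25e-06). Olig2 fell by 0.31 and Olig1 by 0.24. Ptprz1, a receptor phosphatase of precursors, was at 2667, 2894 and 2813 CPM against 2709, 3025 and 2822 CPM and did not pass the test. Against UMI-matched cells 6 of the 22 were lower. Without cells with any rule gene of oligodendrocytes or other cells 4 were, and without the block 0. Against UMI-matched cells Olig1, Olig2 and Sox10 were no longer called (edgeR, adjusted p = 0.268, 0.106 and 0.0605). Sox8 (-0.69) and the factor gene Nkx2-2 (-0.70) still were. The rule asked for 3 of its 5 precursor genes in both classes, so the likeness of their levels was set in part by selection and is a description. Pdgfra, the growth factor receptor that defines these cells (chr5:75152292-75198215, plus strand) and a gene of the rule, was at 1123, 1149 and 1171 CPM in cycle-high and 1056, 1156 and 1199 CPM in cycle-low cells. Cspg4, which encodes NG2 (chr9:56865033-56899870, plus strand) and is also of the rule, was at 369, 338 and 507 CPM against 371, 423 and 580 CPM.

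In the Notch and Id list, 1 of 10 tested genes rose and 5 fell, beside 14.7% and 12.8% of all genes, so that the rise is at the share of all genes. Hes1, a repressor induced by Notch (chr16:30064384-30067796, plus strand), was at 90.6, 211 and 202 CPM in cycle-high and at 52.1, 135 and 134 CPM in cycle-low cells, higher in 3 of 3 experiments, with a log2 fold change of 0.63 ± 0.07 (SE, adjusted p = 1.14e-07). Hes5, another Notch target, was lower (-0.31), but against UMI-matched cells it was at 0.07 and Hes1 at 0.71 on the log2 scale, and 1 of the list was then lower, as it was with DESeq2 and without experiment 3. When cells with any rule gene of oligodendrocytes or other cells were left out, 2 of the list rose and 0 fell. The median was then 0.13 in place of -0.23. Without the block 0 rose and 0 fell, so that Hes1 was not called.

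**Figure D4:**
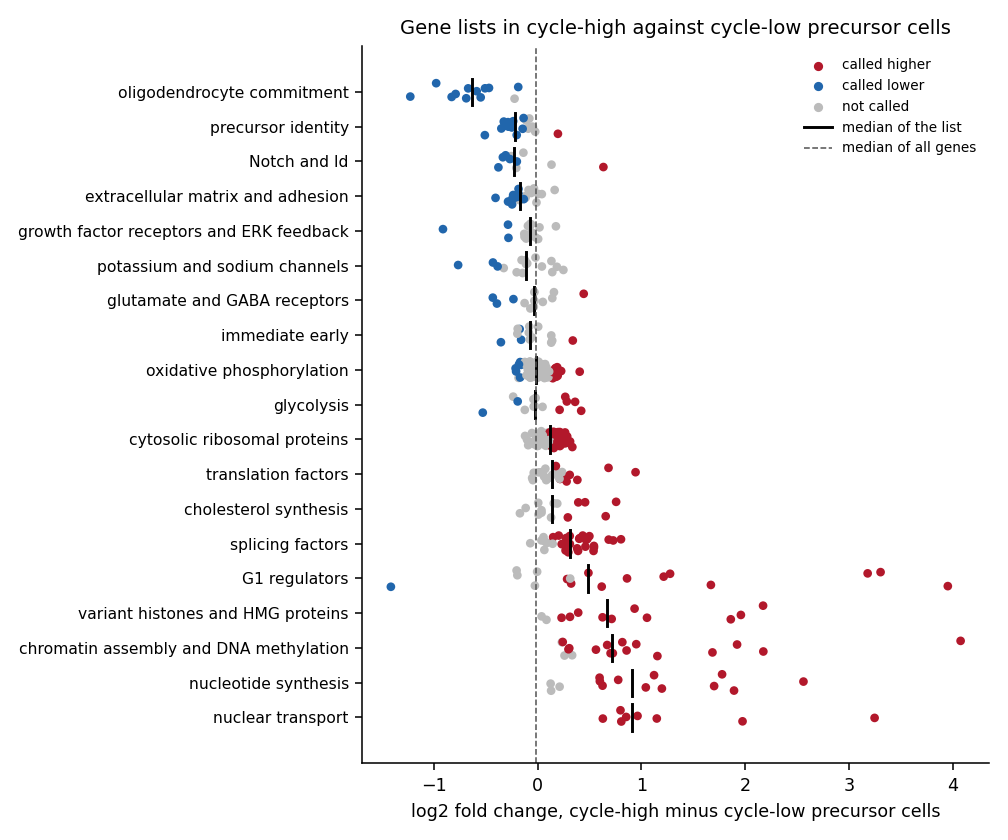
Log2 fold change of cycle-high minus cycle-low precursor cells (horizontal axis) for each tested gene (points) of 19 gene lists (vertical axis), with called genes coloured, the median of each list as a black bar and the median of all genes as a dashed line, genes that passed the filter through 1 class included. The commitment list lies furthest to the left (median -0.63), and nucleotide synthesis and nuclear transport furthest to the right (medians of 0.91). Among genes detected in 20% or more of both classes these last medians were 0.60 and 0.83. Variant histones and HMG proteins, and chromatin assembly, then had medians of 0.67.

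Genes that supply DNA synthesis and package chromosomes were higher. Of 7 nucleotide synthesis genes detected in 20% or more of both classes 4 rose and 0 fell (median 0.60), beside 12.2% and 15.4% of all such genes (median -0.04), which holds for the next lists too. Called higher in the whole list were, among others, Dut (1.89), which keeps uracil out of DNA, and Dck (1.78), which recycles nucleosides and passed through the cycle-high class alone. Of 12 variant histone and HMG protein genes 10 rose and 0 fell (median 0.67). The histone variant gene H2afz was at 1831, 2076 and 1552 CPM in cycle-high cells against 529, 483 and 404 CPM, a log2 fold change of 1.96 ± 0.05 (SE, adjusted p = 1.36e-18). In the list of chromatin assembly and DNA methylation 11 of the 13 detected in both classes rose and 0 fell (median 0.67), and the list's called genes included Dnmt1, the maintenance methyltransferase (1.92), and Ezh2, a Polycomb methyltransferase (1.68), the latter through the cycle-high class alone. In the whole lists 11 of 14 nucleotide synthesis and 15 of 18 chromatin assembly genes rose (medians 0.91 and 0.71), beside 14.7% of all genes. Of these tested genes 7 and 5 passed the filter through 1 class alone, which favours a difference. When cells with any rule gene of oligodendrocytes or other cells were left out, 5 of 15 and 8 of 19 rose. Their medians were 0.87 and 0.82.

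Genes of nuclear traffic and RNA processing moved the same way. All 4 nuclear transport genes detected in 20% or more of both classes rose (median 0.83, beside 12.2% of all such genes), and so did 24 of 31 splicing factors (median 0.31), with 0 lower in both lists. Without the block for the experiment 6 of the splicing factors rose. When cells with any rule gene of oligodendrocytes or other cells were left out, 6 rose too. With those cells left out 5 of 10 tested nuclear transport genes rose, where 8 of 8 did in the whole list with them. Of those 8, 4 passed the filter through 1 class alone. Hnrnpab led the splicing factors at 194, 212 and 167 CPM in cycle-high and 120, 112 and 97.4 CPM in cycle-low cells (0.80 ± 0.07, SE, adjusted p = 2.34e-09). The cytoskeleton list was mixed, with 4 of 9 higher and 3 lower. Stmn1, which destabilises microtubules (chr4:134468320-134473843, plus strand), was at 980, 937 and 686 CPM against 130, 103 and 98.3 CPM, a log2 fold change of 2.96 ± 0.06 (SE, adjusted p = 4.35e-20). Tuba1b and Tubb5, which many proliferating cells use, rose by 1.96 and 1.44, while Tuba1a, the tubulin typical of neural cells, fell by 0.49.

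Translation and metabolism changed less, and are read beside the 14.7% of all genes that rose and the 12.8% that fell. Ribosomal protein genes were higher in 39 of 81 and lower in 0, with a median of 0.12, and against UMI-matched cells 1 was higher and 1 lower. Without the 1-month experiment 22 were higher, without cells with Eomes or Neurog2 24, and with DESeq2 19. Translation factors rose in 8 of 23 (4 against UMI-matched cells or with DESeq2) and glycolysis genes in 5 of 14 with 2 lower. Cholesterol synthesis genes rose in 5 of 14 (3 against UMI-matched cells, with DESeq2 or without experiment 3). Among these Fdft1 passed the filter through the cycle-high class alone. Of the 12 cholesterol genes detected in both classes 4 rose, beside 12.2% of all such genes. Counts of rises were also taken when cells with any rule gene of oligodendrocytes or other cells were left out, and without the block. In this order 0 and 0 ribosomal protein genes and 1 and 2 translation factors rose. For cholesterol genes the counts were 1 and 1, and for glycolysis genes 0 and 0. For oxidative phosphorylation 10 of 80 were higher and 7 lower, neither share above that of all genes, 6 and 3 or 5 and 0 without experiment 2 or 3, 3 and 1 with DESeq2, and 1 and 7 against UMI-matched cells. Aldoa, the largest change in glycolysis (-0.53), has 2 identifiers with 1 symbol in the files, and its value is uncertain.

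Among surface and signalling genes, matrix and adhesion genes stood above the 12.8% of all genes that fell, and the other lists stood nearer to it. Matrix and adhesion genes fell in 10 of 21 with 0 higher (median -0.17), and in 3 against UMI-matched cells or with DESeq2. They fell in 5 or 4 without experiment 2 or 3 and in 0 without the block. When cells with any rule gene of oligodendrocytes or other cells were left out, 1 fell. Growth factor receptor and ERK feedback genes fell in 3 of 15 with 0 higher. They were led by Erbb3, a neuregulin receptor (17.2, 22.3 and 18.9 CPM against 34.4, 38.4 and 36.3 CPM). Erbb3 passed through the cycle-low class alone. Of the 13 genes of this list detected in both classes 2 fell (15.4%), beside 15.4% of all such genes. In the whole list 1 fell without the block, and 0 when cells with any rule gene of oligodendrocytes or other cells were left out. Channel genes fell in 3 of 16, led by the sodium channel gene Scn2a (-0.76), and glutamate and GABA receptor genes in 3 of 12 with 1 higher (Grik1). Immediate early genes fell in 3 of 14 with 1 higher (Klf2, detected in 20.6% of cycle-high and 13.7% of cycle-low cells). Klf2 thus passed the filter through the cycle-high class alone. Against UMI-matched cells it was at 0.06 on the log2 scale and was not called. Of the 11 immediate early genes detected in both classes 3 fell and 0 rose. The 3 falls became 1 for receptors of transmitters without experiment 2 or 3, 5 or 1 for channels, and 5 or 0 for immediate early genes (1 without the 1-month experiment). With DESeq2 they became 1, 1 and 0, so that no immediate early gene was called. Further genes by the naming rule for falls were Tcp11l2, Bfsp2, Kdm5b, Mycl, Pik3ip1, Kctd4, Acads and Map1b, between -1.24 and -0.82. Pik3ip1, a negative regulator of PI3-kinase, was at 48.2, 35.7 and 48.9 CPM against 84.9, 72.1 and 85.6 CPM.

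Within the cycle-high class, cells with 0 mitotic genes and cells with 2 or 3 could be set side by side, as a description, since cycle genes define both sets. They numbered 51 and 24 cells at 1 month, 67 and 21 in experiment 2 and 164 and 57 in experiment 3, and cells with 2 or 3 were deeper (medians of 9619.5, 12759 and 13563 UMIs against 7696, 8170 and 9938.5). Mki67 was at 356, 656 and 520 CPM in the set with 2 or 3, against at most 1.20 CPM in the set with 0. Of the 7 replication genes of the rule Pcna, Mcm5, Mcm6 and Mcm7 were higher in the set with 2 or 3 in 3 of 3 experiments. Mcm2 (84.4 against 91.2 CPM on average), Mcm3 (127 against 110 CPM) and Mcm4 (126 against 131 CPM) were not. Replicative histone genes, which are read in S phase, summed to 3074, 8915 and 3277 CPM in the set with 2 or 3 and to an average of 222 CPM in the set with 0 against 241 CPM in cycle-low cells. Cdkn2c was at 405, 551 and 434 CPM in the set with 2 or 3 and at 19.2, 10.8 and 7.22 CPM in the set with 0, beside 16.4, 5.98 and 9.20 CPM in cycle-low cells. Several lists that were higher in the whole class lay above the cycle-low level in the set with 0, by differing amounts. G2 and M phase genes summed to 1325 CPM on average there, 998 CPM in cycle-low cells and 17092 CPM in the set with 2 or 3, and variant histone and HMG genes to 6188, 5752 and 16457 CPM. Splicing factors summed to 8816, 8012 and 12475 CPM. S phase genes outside the rule summed to 1874, 589 and 5251 CPM in the same order. Nucleotide synthesis genes summed to 1285, 926 and 1994 CPM and nuclear transport genes to 1121, 784 and 2312 CPM. Genes of chromatin assembly and DNA methylation summed to 3552, 2702 and 6228 CPM.

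Commitment genes were lowest in the set with 2 or 3 mitotic genes. Their sum averaged 3844 CPM in cycle-low cells, 2753 CPM in the set with 0 and 1593 CPM in the set with 2 or 3. Bcas1 was at 98.2, 84.7 and 117 CPM in the set with 2 or 3 and at 292, 147 and 190 CPM in the set with 0. Cdkn1c differed by less than its SD, with 24.3 CPM ± 7.16 in the set with 0 and 23.0 CPM ± 9.96 in the set with 2 or 3 (SD, n = 3). Precursor identity genes summed to 23426 CPM on average in the set with 0 and 17048 CPM in the set with 2 or 3. At 1 month the summed counts of the 24 cells with 2 or 3 also held Neurog2 at 94.2, Eomes at 69.6 and Cldn5 at 147 CPM, each at 0 in the set with 0 at that age. Very few cells carried these values: Cldn5 was detected in 1 of all 434 cycle-high cells, and Eomes or Neurog2 in 3 of 94 at 1 month. The part of such cells in the other values of this set was not tested.

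**Figure D5:**
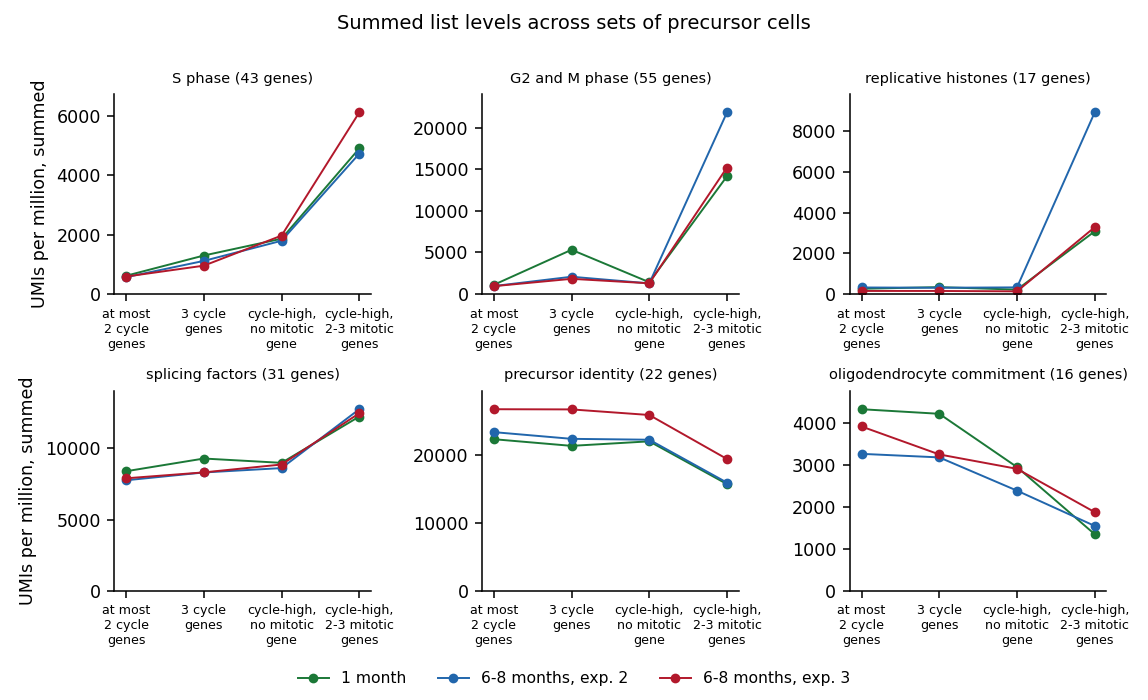
Summed CPM of 6 gene lists (vertical axes, from 0, rule genes left out) in precursor cells with at most 2 cycle genes, with 3, and in cycle-high cells with 0 and with 2 or 3 mitotic genes (horizontal axes), with 1 line for each of the 3 experiments. Commitment genes step down from 3844 to 1593 CPM on average, and replicative histones are high only in the last set.

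The reporter was read to ask whether cycle-high precursors carried the recombined locus. UMIs of the recombined locus (WPRE and bGHpolyA) numbered 58, 29 and 65 in the cycle-high cells of the 3 experiments and 338, 458 and 1323 in cycle-low cells. That is 66.5, 32.4 and 25.0 CPM in cycle-high and 84.2, 48.1 and 81.2 CPM in cycle-low precursors, lower in 3 of 3 experiments though the classes overlapped. On the log2(CPM + 10) scale the difference was -0.71 ± 0.58 (SD, n = 3; two-sided exact sign-flip permutation test, p = 0.25, adjusted over 3 elements 0.25, the smallest p that 3 experiments allow).

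The intact locus was far more abundant, at 1800, 2842 and 2622 CPM in cycle-high and 1716, 2665 and 2293 CPM in cycle-low cells (difference 0.12 ± 0.07, SD, exact permutation p = 0.25). In the fit across genes the intact locus (tdTomatoLoxP) had a log2 fold change of 0.13 and an adjusted p of 0.0146 (0.0756 with DESeq2). By the study's limits for tdTomato+ cells, doubled for Version 3 (under 8 UMIs of the intact and over 2 of the recombined locus), 2 of 94, 0 of 95 and 0 of 239 cycle-high cells were tdTomato+, against 30 of 625, 11 of 1430 and 38 of 2063 cycle-low cells. The limit on the intact locus is harder to meet in deeper cells, whose median was 16, 24 and 26 such UMIs in cycle-high and 10, 17 and 17 in cycle-low cells. By the limit on the recombined locus alone, 9 of 94 (9.57%, exact interval 4.47 to 17.4), 1 of 95 (1.05%, 0.0266 to 5.73) and 2 of 239 (0.837%, 0.102 to 2.99) cycle-high cells passed, against 6.72%, 2.52% and 5.24% of cycle-low cells.

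eGFP, by which cells were sorted, was at 801, 755 and 445 CPM in cycle-high and 577, 532 and 312 CPM in cycle-low precursors. It was higher in 3 of 3 experiments by 0.47 to 0.50 on the log2(CPM + 10) scale (two-sided exact sign-flip permutation p = 0.25, the smallest possible), and in the fit across genes its log2 fold change was 0.51 ± 0.05 (SE, adjusted p = 7.13e-09).

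Age was compared in cycle-high cells between experiments 2 and 3 at 6-8 months and the 1 experiment at 1 month. With 1 sample at 1 month the fit assumes that it would vary like the other two, so that the calls hold no measure of the spread at that age. Of 7282 genes outside the rule, 23 (0.316%) were higher and 9 (0.124%) lower at 6-8 months (edgeR's quasi-likelihood test, Benjamini-Hochberg adjusted p under 0.05). With DESeq2 in place of edgeR 2 were higher (Fosb and Gm8797) and 2 lower (Hddc3 and Tmem163).

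Genes lower at 6-8 months included Hddc3, a nucleotide phosphatase gene (chr7:80343104-80350547, plus strand), at 97.5 CPM at 1 month and 12.3 and 21.2 CPM at 6-8 months in cycle-high cells (log2 fold change -2.47), and at 95.7 CPM against 61.6, 25.7 and 20.4 CPM in the cycle-low cells of all 3 experiments at 6-8 months. Bmp4 went from 80.3 to 19.0 and 22.3 CPM (-1.98) and Gadd45g, a stress and differentiation gene, from 126 to 62.5 and 25.8 CPM (-1.73, or -2.34 and -0.99 without experiment 2 or 3). The others by the naming rule were Tmem163, Ndn, Ttc9b, Gm10076 and Gm17669, of which Gm17669 is annotated as a processed pseudogene and may share reads with its parent gene.

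Among genes higher at 6-8 months were the immediate early genes Fosb, Fos, Egr1 and Junb, 4 of 14 in that list. Fos stood at 135 CPM at 1 month and at 683 and 361 CPM at 6-8 months in cycle-high cells, and at 202 CPM against 405, 576 and 421 CPM in the cycle-low cells of the 3 experiments. Leaving out experiment 2 or 3 moved its log2 fold change from 1.90 to 1.31 or 2.31. Fosb had 2 UMIs in cycle-high cells at 1 month and 302 at 6-8 months, a ratio of 37.7 with a 95% counting interval of 10.3 to 313. Immediate early genes are known to respond to stimulation and to tissue handling, and age and preparation cannot be told apart here. The others by the rule were Gm8797, C130073E24Rik, Maf, Pla2g16 and Npy. Outside the rule for naming, Hes1 (90.6 against 211 and 202 CPM) was also called higher. An unadjusted p under 0.05 was seen for 436 of all 7282 genes.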

How the data were processed

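Single-cell RNA of sorted dentate gyrus cells was measured in 8 libraries (7 experiments, 1 library each except the first at 2 months). The authors deposited raw UMI counts per gene and barcode, made with Cell Ranger 3.0.2 on mm10 with eGFP and reporter sequences added and joined without depth normalization; per the labels' processing notes cutadapt 1.18 and Seurat were also used. The members, gene lists and naming rule were chosen with earlier results of these data known. Counts were summed per class and experiment where both classes held at least 5 cells. Sums were tested with edgeR 4.0.16 (R 4.3.3; TMM, quasi-likelihood, experiment as block, Benjamini-Hochberg) over genes detected in 20% or more of the cycle-high or of the cycle-low cells; standard errors are the fold change over the root of F. Genes of the rule stayed in the fit but got no p. No doublet caller was run, so doublets remain possible beyond the rule's limits on genes of other cells. Shares have exact 95% binomial intervals. Depth per library is 4861883 to 43826338 UMIs. Named were, in each direction, the 12 largest called changes with at least 50 CPM in the higher class and the same sign in every experiment (8 for age), and up to 4 called genes a list with at least 20 CPM. Olig1, Olig2, Sox10, Emid1, Ccnd1, Ccnd2, Cdkn2d, Sirt2, Neu4 and Tuba1a were named after their values were seen. Alternatives were DESeq2 1.42.0, other scaling, filters, class limits, depth-matched cells, no block and each experiment left out; counts over genes detected in both classes were added after seeing the data. The fitting step was tested on simulated data with planted 2-fold changes. It recovered 100% of them between the classes and 36.5% between the ages (medians over draws). Few calls by age thus do not show that few genes differ. Gene positions are from GENCODE M21 (GRCm38), promoters from RefSeq. A few genes that the lists and the rule cover are not reported here.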

Additional observations from a re-analysis of the deposited data

Results flagged for a closer look

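The 4 experiments left out of the tests held 6 cycle-high cells in all, too few for a class sum. Some genes called between the classes had a cycle-high minus cycle-low difference at 1 month of the opposite sign to both experiments at 6-8 months. The difference at 1 month was 0.742 CPM for Id3, 0.481 CPM for Gabrb1, 21.2 CPM for Sox4 and -2.50 CPM for Ndufv1. The difference between the ages was not tested for these genes.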

How the results depend on the processing

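The count of 1061 higher genes was 563 with DESeq2. It was 353 when cells with any rule gene of oligodendrocytes or other cells were left out and 364 without a block for the experiment. The 925 lower were 285, 141 and 58 in the same order, and 576 against cycle-low cells nearest in UMIs. Leaving out 1 experiment at a time gave 658 to 960 higher and 357 to 685 lower, the lowest of each without experiment 3 at 6-8 months. Leaving out cells with any rule gene of oligodendrocytes or other cells kept 15, 8 and 22 cycle-high cells. Most precursors hold an Aldoc UMI. For age, DESeq2 gave 2 higher and 2 lower in place of 23 and 9, and edgeR's own expression filter gave 19 lower. Against cells nearest in UMIs the single genes that changed sign were Hes5 (0.073) and Clu (0.0099). Without cells with a rule gene of oligodendrocytes or other cells they were Hes5 (0.025), Npm1 (-0.023), Etv5 (0.30), Jun (0.048) and Dll3 (0.099). The cause was not tested. The reporter difference stayed between -0.92 and -0.38 when 1 experiment was left out, and the share difference between 2.94 and 7.57 percentage points. A fit on Version 2 experiments alone was not run, since they hold 5 cycle-high cells. Leaving out an experiment in the age comparison gives values without a test.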
